A study of Mus musculus with 12 samples.

Results

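Genes that mark endothelial cells, and the beds of vessels those cells line, were followed in the border zone of infarcted mouse hearts. The set holds 40 genes, listed by symbol. A gene was measured through the probesets of the array that the platform annotation ties to its symbol alone, and its level on an array was the median over them. In this way 39 of the 40 were measured, among 20352 genes in all, through 429 probesets that ranged from 1 for Aplnr to 55 for Vwf. Tspan7, a membrane tetraspanin of capillary endothelium, was not analysed here. The samples were RNA from hearts of C57BL/6J mice 12 weeks old, 6 with an infarct and 6 with a sham operation, collected 2 weeks after surgery. Tissue came from the zone bordering the infarct and from the matching place in sham hearts, and the labels name no gene alteration or drug in either group. The series text calls the 6 samples of a condition biological replicates. The deposited values, 1.52 to 14.37, were read as log2 signal, on which a difference of 1 doubles the signal. The level of a gene cannot be set against that of another gene, because each probeset has its own brightness, and only changes between conditions are compared across genes.

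Endothelial cells line every vessel and share a core of junction proteins, surface receptors and transcription factors of the ETS and SOXF families. Beyond that core they differ by bed: capillaries of the heart pass fatty acids and water to muscle, arterial cells carry Notch and ephrin-B2 signals, and venous cells carry the nuclear receptor COUP-TFII and the ephrin receptor EphB4. Cytokines of injury make endothelium display selectins and immunoglobulin-type adhesion molecules that capture leukocytes, a response that runs through NF-kB. Sprouting cells, in turn, express apelin and endocan. Because whole tissue was measured, fewer endothelial cells and less RNA per cell cannot be told apart.

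Promoter windows from RefSeq on build GRCm38.p6 were found for 22 of the 39 measured genes, with 26 windows in all, each covering the 250 bases before a transcription start. The 3 shown belong to Icam1, Sele and Selp, and no window of Vcam1, the other adhesion gene of the set, is shown. The 3 are given so that the array values below can be read beside the sequence. Capitals mark every match, on either strand, to the NF-kB pattern GGNNNTTCC, in which N is any base. The Icam1 window lies on the plus strand at chr9:21015690-21015939, with matches that begin 153 and 84 bases before the start. The Sele window lies on the plus strand at chr1:164047984-164048233, with a match that begins 145 bases before the start. The Selp window lies on the plus strand at chr1:164115014-164115263, with a match that begins 14 bases before the start and reads as the pattern on the minus strand.
Icam1: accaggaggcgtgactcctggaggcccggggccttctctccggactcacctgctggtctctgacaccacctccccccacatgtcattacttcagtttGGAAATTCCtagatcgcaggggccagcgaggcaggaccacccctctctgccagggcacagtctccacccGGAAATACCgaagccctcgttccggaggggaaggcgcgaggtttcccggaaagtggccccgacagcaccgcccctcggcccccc
Sele: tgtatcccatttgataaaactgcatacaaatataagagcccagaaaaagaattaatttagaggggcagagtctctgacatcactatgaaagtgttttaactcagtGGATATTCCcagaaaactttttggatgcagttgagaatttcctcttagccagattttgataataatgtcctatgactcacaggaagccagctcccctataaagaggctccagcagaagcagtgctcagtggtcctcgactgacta
Selp: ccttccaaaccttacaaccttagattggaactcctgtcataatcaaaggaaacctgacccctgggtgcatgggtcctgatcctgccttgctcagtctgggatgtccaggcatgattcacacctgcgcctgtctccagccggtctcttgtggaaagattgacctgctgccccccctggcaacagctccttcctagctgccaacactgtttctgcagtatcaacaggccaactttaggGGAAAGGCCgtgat
The pattern was present in 8 of the 26 windows, 30.8%, and in 15.7% of all 32851 mouse windows of that length. The 3 windows shown all hold it and so are not typical of the 26. The ETS core AGGAAG, on either strand, was in 13 of the 26 windows, 50%, and in 29.5% of all windows. The SOX core AACAAT, on either strand, was in 2 of the 26, 7.69%, and in 9.42% of all windows. Of the 3 windows shown, those of Sele and Selp held the ETS core and that of Icam1 did not, and in these 3 windows no ETS or SOX match overlapped an NF-kB match, although some did in others, such as those of Eng and Nostrin. A match describes letters in a window and does not show that a factor binds there.

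Comparing infarcted with sham hearts, 8 of the 39 measured genes were higher and 1 was lower (limma, adjusted p under 0.05 over all 20352 genes). The 8 were Selp, Plvap, Icam1, Vcam1, Nr2f2, Esm1, Erg and Efnb2, and the 1 lower gene was Aqp1. Of all genes, 10.1% were called higher and 10.2% lower. The members were chosen with earlier results of these data known, so their shares are not an independent comparison. The median change of the 39 was 0.14 on the log2 scale, against -0.04 over all genes, and 26 of them had a positive and 13 a negative change. In 4 genes, Selp, Plvap, Icam1 and Vcam1, every infarcted heart lay above every sham heart, a pattern seen in 5.97% of all genes. The reverse, every infarcted heart below every sham heart, was seen in 0 of the 39 and in 5.29% of all genes. Only Selp and Plvap differed by more than 1 on the log2 scale among the called members. The other 30 genes did not pass the test, which does not show that they were equal between the conditions.

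**Figure D1:**
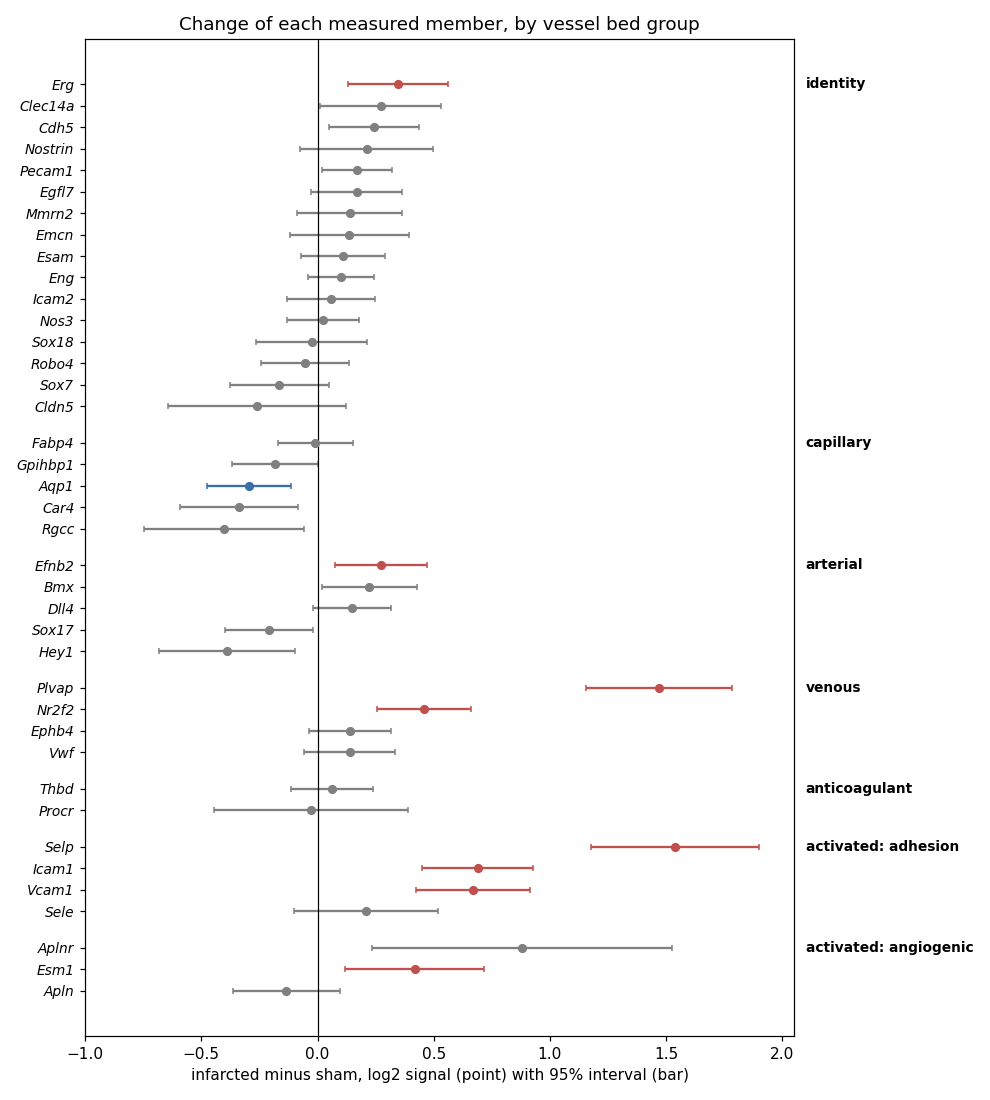
Change of each of the 39 measured genes, infarcted minus sham on the log2 scale, with its 95% confidence interval from the limma fit, ordered by vessel bed group; red marks genes called higher, blue the gene called lower and grey the others. All 5 capillary genes lie left of 0, and Selp and Plvap lie farthest to the right, at 1.54 and 1.47.

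Array medians ran from 6.997 to 7.026 in sham and from 7.045 to 7.058 in infarcted hearts, and pairs of arrays correlated at 0.956 to 0.979 over all probesets. That small offset of the medians bears on weak calls. After each array was centred on its median, the median change over all genes was -0.083, and 1748 genes were higher and 2956 lower in place of 2050 and 2074. With that centring 6 of the 39 genes were higher and 3 were lower. Infarcted replicate 4 stood highest in a list of atrial markers, with a mean level of 10.16 against 7.28 to 8.09 in sham hearts. Infarcted replicates 5 and 6 followed at 9.19 and 8.86, and replicates 1, 2 and 3 lay at 7.75 to 7.79. That list includes Nppa, which was higher in infarcted hearts by 2.04 (adjusted p = 2.78e-09 in limma). Infarcted replicate 5 stood highest in adipocyte markers, at 7.48 against 5.16 to 5.51 in sham hearts, and in mesothelial markers, at 7.18 against 5.69 to 6.33. Without infarcted replicates 4 and 5, and with replicate 6 kept, 8 of the 39 genes were higher and 2 lower. The lower ones were Rgcc and Sox17, while Aqp1 and Efnb2 were no longer called and Aplnr was.

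Among the 16 measured genes of general endothelial identity, 1 was called higher, Erg, and 0 were called lower. Their mean level ran from 8.93 to 9.18 in sham hearts and from 9.06 to 9.28 in infarcted hearts, ranges that overlap, and their median change was 0.12. The pair used most widely to mark endothelium was clearly measured. Pecam1, the platelet and endothelial cell adhesion molecule of cell contacts, lay at 9.91, 10.03 and 10.17 (lowest, median and highest) in sham and at 10.03, 10.25 and 10.29 in infarcted hearts. The difference was 0.17 (SE 0.07, adjusted p = 0.108 in limma), and infarcted replicate 2 alone stood within the sham range. Cdh5, the VE-cadherin that holds endothelial junctions together, lay at 11.10, 11.33 and 11.62 in sham and 11.41, 11.61 and 11.71 in infarcted hearts, a difference of 0.24 (SE 0.09, adjusted p = 0.0760 in limma). All 6 infarcted hearts lay above the sham mean of Cdh5, but the groups overlapped.

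Pecam1 and Cdh5 stayed uncalled in most settings, and a few moved them past the threshold. Of 12 limma fits that left out an array, 1 called Pecam1 and 2 called Cdh5. Of 9 other limma settings, 1 called Pecam1 and 1 called Cdh5. In those 9 the adjusted p ran up to 0.292 for Pecam1 and 0.200 for Cdh5, and with arrays centred on their medians it was 0.211 and 0.133. Without infarcted replicate 2 the adjusted p was 0.0423 for Pecam1 and 0.0479 for Cdh5. Without sham replicate 5 that of Cdh5 was 0.0280. With all arrays kept, it was 0.0344 for Pecam1 with the mean over probesets and 0.0354 for Cdh5 with a trended robust prior. All 19 probesets of Pecam1 had a positive change, between 0.03 and 0.28, and 2 of them passed the test across probesets.

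The other surface and junction genes of the identity group gave changes from -0.26 to 0.27, and none of them passed. Clec14a, a C-type lectin that binds Mmrn2, gave a difference of 0.27 (adjusted p = 0.137), and Mmrn2, the multimerin of the endothelial matrix, gave 0.14 (adjusted p = 0.408). Nostrin, a trafficking partner of endothelial nitric oxide synthase, gave a difference of 0.21 (adjusted p = 0.306), while the synthase gene itself, Nos3, gave a difference of 0.02 (adjusted p = 0.865). Egfl7, a secreted protein of the vessel wall that hosts a microRNA in its introns, gave a difference of 0.17 (adjusted p = 0.224). Emcn, a sialomucin that keeps leukocytes off resting capillary and venous endothelium, gave a difference of 0.14 (adjusted p = 0.478). The junction molecule Esam gave a difference of 0.11 (adjusted p = 0.419), the TGF-beta co-receptor Eng 0.10 (adjusted p = 0.328), and the leukocyte ligand Icam2 0.06 (adjusted p = 0.701). Robo4, a roundabout receptor that steadies the endothelial barrier, gave a difference of -0.05 (adjusted p = 0.735). Eng and Pecam1 were the steadiest of the 39 genes within groups, with pooled SDs of 0.087 and 0.099.

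Cldn5, the claudin of endothelial tight junctions, was the most uneven of the identity genes. Its level was 7.91, 8.08 and 8.40 in sham and 7.43, 7.68 and 8.61 in infarcted hearts, a difference of -0.26 (SE 0.18, adjusted p = 0.351 in limma). The infarcted hearts covered the whole sham range: replicates 1, 2, 4 and 5 lay below all sham hearts, and replicate 3 lay above all of them. Only 3 probesets measured it, and 2 of those had positive changes, so that the mean over probesets gave 0.11 in place of -0.26.

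Of the 3 transcription factors of endothelial identity, 1 was called. Erg, an ETS factor that maintains junction and quiescence genes, lay at 8.41, 8.57 and 8.88 in sham and at 8.72, 9.01 and 9.12 in infarcted hearts. It was 1.27-fold higher, a log2 change of 0.35 (SE 0.10, adjusted p = 0.0257 in limma), with all 6 infarcted hearts above the sham mean and the groups overlapping. Leaving out a single array ended that call in 6 of 12 cases (sham replicates 1, 3 and 4, infarcted replicates 1, 3 and 6), with an adjusted p up to 0.0599. Sox7 and Sox18, SOXF factors of early vessel formation, gave differences of -0.16 (adjusted p = 0.284) and -0.03 (adjusted p = 0.904). Sox17, the third SOXF factor, is listed with the arterial genes below and gave a difference of -0.21.

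The probesets of Erg differed in a way that the gene median hides. All 12 had a positive change and 5 passed the test across probesets. Among 11 of them the changes lay between 0.08 and 0.55. The twelfth went from 4.31 ± 0.43 in sham to 6.48 ± 0.34 in infarcted hearts (SD, n = 6 each), a difference of 2.17 (SE 0.21). Its mean over all hearts was under 5.58, the 30th percentile of all probesets, and such probesets were left out of the test for unequal probesets. With no filter on dim probesets, Erg and Procr were added to the genes with unequal change, and with dim probesets left out of the gene value, the adjusted p of Erg was 0.156.

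All 5 genes of heart capillaries had negative changes, with a median of -0.29, and 1 of them, Aqp1, was called lower. Their mean level was 9.94 to 10.08 in sham and 9.51 to 10.005 in infarcted hearts, with infarcted replicate 4 within the sham range and the other 5 below it. Aqp1, the water channel of capillary endothelium and of red cells, lay at 10.75, 10.91 and 11.07 in sham and at 10.47, 10.62 and 10.86 in infarcted hearts. It was 1.23-fold lower, a log2 change of -0.29 (SE 0.08, adjusted p = 0.0240 in limma), and every infarcted heart lay below the sham mean, although the groups overlapped. All 6 of its probesets had negative changes, from -0.51 to -0.29, and 4 of them were called lower. Leaving out 1 array ended the call in 4 of 12 cases (sham replicates 1 and 2, infarcted replicates 3 and 5), with an adjusted p up to 0.0561. Without infarcted replicates 4 and 5 together it was 0.0786. Of the red cell markers 2 were measured, and 1 of them, Alas2, was lower, with a difference of -0.49 (adjusted p = 0.0267). Its part in the value of Aqp1 was not tested.

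Car4 and Rgcc had larger negative differences than Aqp1 but varied more between hearts. Car4, the carbonic anhydrase on the luminal face of capillaries, lay at 9.83, 9.92 and 10.19 in sham and 9.11, 9.67 and 9.89 in infarcted hearts, a difference of -0.34 (SE 0.12, adjusted p = 0.0577 in limma). All 8 of its probesets were negative, and it passed the threshold in 2 of the 12 fits that left out an array (infarcted replicate 1 or 4) and in 6 other settings. Rgcc, a cell cycle regulator rich in capillary endothelium, lay at 7.54, 7.999 and 8.14 in sham and 7.14, 7.43 and 8.12 in infarcted hearts, a difference of -0.40 (SE 0.16, adjusted p = 0.0956 in limma). Its highest infarcted value belonged to replicate 4, without which the adjusted p was 0.0132.

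The fatty acid genes of the capillary group did not pass. Gpihbp1, the anchor that holds lipoprotein lipase on the capillary wall, lay at 9.95, 10.13 and 10.29 in sham and at 9.76, 9.93 and 10.13 in infarcted hearts. The difference was -0.18 (SE 0.09, adjusted p = 0.164 in limma), with all 6 infarcted hearts below the sham mean and all 4 probesets negative. Fabp4, a fatty acid carrier of capillaries and of fat cells, gave a difference of -0.01, with a 95% interval of -0.17 to 0.15 (adjusted p = 0.948 in limma). Adipocyte markers were highest in infarcted replicate 5, with Adipoq and Lep among the dimmest genes over all hearts.

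Of the 5 arterial genes, 1 was called higher, Efnb2, and 0 were called lower, with a median change of 0.15 and changes in both directions. Efnb2, the ephrin-B2 ligand of arterial endothelium, lay at 7.41, 7.52 and 7.84 in sham and at 7.65, 7.80 and 8.13 in infarcted hearts. The difference was 0.27 (SE 0.09, adjusted p = 0.0498 in limma), and sham replicate 5 stood apart at 7.84, within the infarcted range. Leaving out 1 array ended the call in 10 of 12 cases, all but sham replicate 5 and infarcted replicate 4, with an adjusted p up to 0.101, and 5 other settings ended it too. Hey1, a Notch target and transcriptional repressor, lay at 7.82, 8.22 and 8.69 in sham and 7.70, 7.81 and 8.01 in infarcted hearts, a difference of -0.39 (SE 0.14, adjusted p = 0.0579 in limma). All 5 of its probesets were negative and the 6 infarcted hearts sat close together, whereas sham hearts ranged widely. Hey1 passed the threshold in 2 of the 12 fits that left out an array (sham replicate 1 or 6) and in 5 other settings.

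Dll4, the Notch ligand of arteries and tip cells, gave a difference of 0.15 (adjusted p = 0.219 in limma). Sox17, a SOXF factor needed for arterial fate, gave a difference of -0.21 (adjusted p = 0.117 in limma), with infarcted replicate 5 the highest of its group at 7.35, and without that heart the adjusted p was 0.0290. Bmx, a cytosolic tyrosine kinase of arterial endothelium and endocardium, was dim on all arrays, with mean levels of 4.65 in sham and 4.87 in infarcted hearts, and gave a difference of 0.22 (adjusted p = 0.120 in limma).

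All 4 venous and larger-vessel genes had positive changes, and 2 of them, Plvap and Nr2f2, were called higher. Plvap, which forms the diaphragms of fenestrae and caveolae and is scarce in resting heart capillaries, lay at 5.87, 6.32 and 6.40 in sham and at 7.34, 7.66 and 8.24 in infarcted hearts. The groups did not overlap, and the gap between the highest sham and the lowest infarcted heart was wider than the whole sham range. Plvap was 2.77-fold higher (95% interval 2.23 to 3.45), a log2 change of 1.47 (SE 0.15, adjusted p = 8.71e-06 in limma). Of its 6 probesets 5 were called higher, with changes from 0.65 to 1.52. The uncalled one was the brightest, with a sham mean of 9.77, and changed by 0.28 (adjusted p = 0.104 across probesets in limma). Endocardial cells also make Plvap, and of 5 endocardial markers 0 were called in either direction, with mean levels of 7.04 to 7.33 in sham and 6.99 to 7.21 in infarcted hearts. Hapln1, on that list, was dim, with a sham mean of 3.97. The part of endocardium in the value of Plvap was not tested.

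Nr2f2, the COUP-TFII receptor that sets venous fate and is also present in lymphatic and stromal cells, lay at 7.86, 7.96 and 8.41 in sham and at 8.35, 8.48 and 8.60 in infarcted hearts. It was 1.37-fold higher, a log2 change of 0.46 (SE 0.09, adjusted p = 0.00325 in limma), and only sham replicate 1, at 8.41, entered the infarcted range. The call held in all 12 fits without an array. Of the 6 measured lymphatic markers 3 were higher, Pdpn by 1.15, Mmrn1 by 0.42 and Flt4 by 0.27. Prox1 was lower, at -0.41, while Lyve1 at -0.29 and Reln at 0.04 were not called. The mean level of the 6 was 7.76 to 7.96 in sham and 7.97 to 8.12 in infarcted hearts, with Pdpn the largest change among them. The stromal and lymphatic sources of Nr2f2 were not tested.

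Ephb4, the venous receptor for ephrin-B2, gave a difference of 0.14 (adjusted p = 0.269 in limma). Vwf, the von Willebrand factor that binds platelets and is stored in veins, arteries and endocardium, gave a difference of 0.14 (adjusted p = 0.327 in limma). Of its 55 probesets 48 had a positive change and 7 were called higher, and with the mean over probesets in place of the median the adjusted p was 0.0438.

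Both measured receptors of the anticoagulant protein C system stayed uncalled. Thbd, the thrombomodulin that turns thrombin toward protein C, lay at 9.33, 9.45 and 9.60 in sham and 9.22, 9.56 and 9.68 in infarcted hearts, a difference of 0.06 (95% interval -0.11 to 0.24, adjusted p = 0.654 in limma). Procr, the endothelial protein C receptor, gave a difference of -0.03 with a wide 95% interval of -0.45 to 0.39 (adjusted p = 0.939 in limma). Its 7 probesets spanned changes from -0.51 to 0.83, and 1 of them was called higher. The brightest lay at 10.34 in sham and 10.33 in infarcted hearts, a change of -0.01. The others had group means of 3.57 to 6.75.

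The 4 adhesion molecules of activated endothelium had a median change of 0.68, the largest of the 7 groups. All had positive changes, 3 were called higher, and in those 3 no infarcted heart fell within the sham range. Their mean level was 6.45 to 6.83 in sham and 6.94 to 7.71 in infarcted hearts. Selp, the P-selectin on which leukocytes begin to roll, lay at 4.57, 4.97 and 5.09 in sham and at 5.74, 6.47 and 7.01 in infarcted hearts. It was 2.90-fold higher (95% interval 2.26 to 3.73), a log2 change of 1.54 (SE 0.17, adjusted p = 2.09e-05 in limma). All sham levels lay under 5.26, the 30th percentile of gene levels, where much of the signal can be background. Platelets also carry Selp, and of 7 measured platelet markers 0 were higher and 1, Gp9, was lower, with mean levels of 6.49 to 6.99 in sham and 6.38 to 6.64 in infarcted hearts. Clec1b, on that list, lay under the same percentile of gene levels. The part of platelets in the value of Selp was not tested.

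Icam1, an integrin ligand that stops rolling leukocytes, lay at 7.29, 7.56 and 7.79 in sham and at 7.87, 8.23 and 8.45 in infarcted hearts. It was 1.61-fold higher, a log2 change of 0.69 (SE 0.11, adjusted p = 0.000531 in limma). All 9 of its probesets were positive, from 0.12 to 0.76, and 2 were called. Vcam1, which binds monocytes and lymphocytes through another integrin, lay at 7.82, 7.94 and 8.23 in sham and at 8.26, 8.66 and 8.96 in infarcted hearts, and 9 of its 12 probesets were called. It was 1.59-fold higher, a log2 change of 0.67 (SE 0.11, adjusted p = 0.000869 in limma).

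Icam1 and Vcam1 are also made by macrophages and fibroblasts, and markers of both rose beside them. Of 7 macrophage markers 6 were higher, with mean levels of 7.37 to 7.67 in sham and 8.01 to 8.37 in infarcted hearts. Of 7 fibroblast markers all 7 were higher, at 9.11 to 9.39 in sham and 10.33 to 10.72 in infarcted hearts. No marker of either list lay among the dimmest 30% of genes. Their part in these changes was not tested.

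Sele, the E-selectin of activated endothelium, was not called. It lay at 5.80, 6.05 and 6.35 in sham and at 5.87, 6.29 and 6.85 in infarcted hearts, ranges that overlap widely, with a difference of 0.21 (SE 0.15, adjusted p = 0.356 in limma). Of its 14 probesets 13 had a positive change and 0 were called. The call depended on how probesets were joined: with their mean the adjusted p was 0.0241, and with dim probesets left out it was 0.0224. The filter on dim probesets used the mean over all hearts, so the level in infarcted hearts helped to decide which were kept. A kept probeset of Sele had a sham mean of 5.44, under the limit of 5.58, and an infarcted mean of 6.04. Sele and Selp lie on the same chromosome and each had an NF-kB match in the windows printed above, as did Icam1. The difference between the changes of Sele and Selp was not tested.

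**Figure D2:**
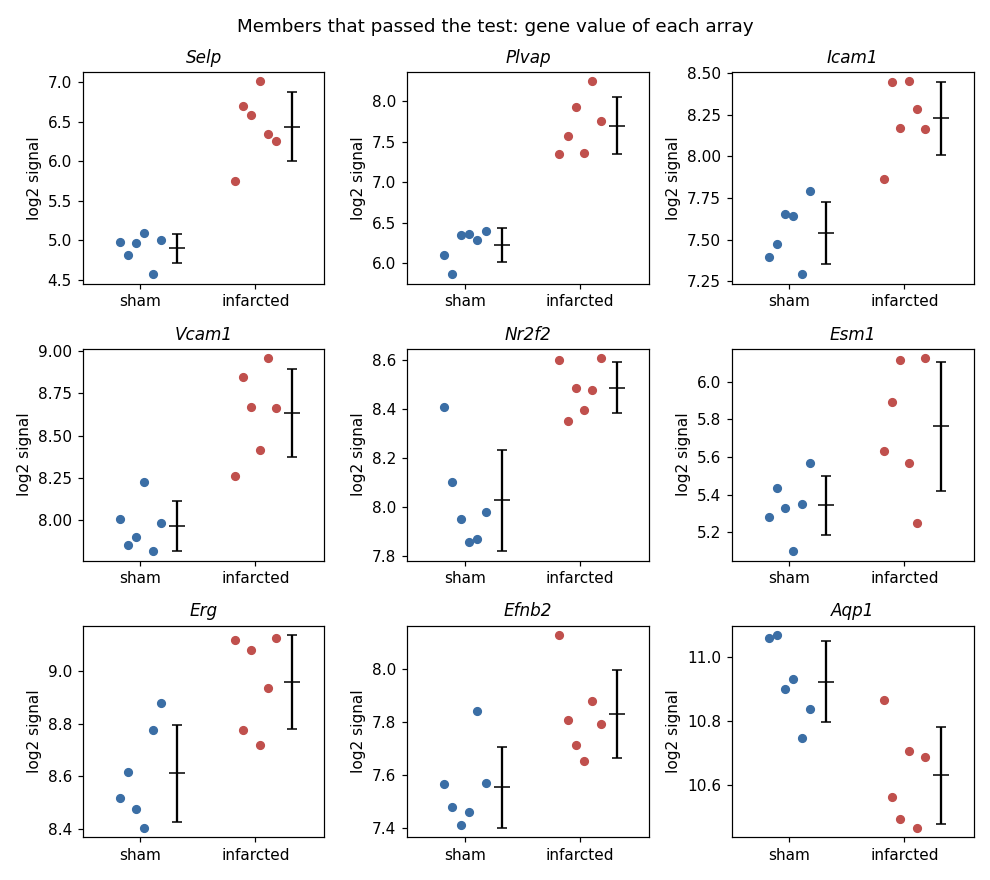
Level of each called gene in every heart on the log2 scale, with sham hearts in blue, infarcted hearts in red, and the mean and SD of each group (n = 6) as a bar beside them. Infarcted points lie wholly above sham points for Selp, Plvap, Icam1 and Vcam1, whereas the groups overlap for the other called genes.

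Of the 3 genes of sprouting and angiogenic endothelium, 1 was called higher, Esm1. Esm1, the endocan proteoglycan of tip cells, lay at 5.10, 5.34 and 5.57 in sham and at 5.25, 5.76 and 6.12 in infarcted hearts, a difference of 0.42 (SE 0.14, adjusted p = 0.0472 in limma). The groups overlapped, 0 of its 4 probesets passed alone, and leaving out 1 array ended the call in 9 of 12 cases, all but sham replicate 6 and infarcted replicates 4 and 5, with an adjusted p up to 0.104. Quantile normalization and centring of the arrays ended it too, with an adjusted p up to 0.0677. Apln, the apelin peptide of sprouting cells, lay at 8.05, 8.34 and 8.72 in sham and 7.97, 8.23 and 8.43 in infarcted hearts, a difference of -0.13 (adjusted p = 0.432 in limma).

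Aplnr, the apelin receptor of venous and sprouting endothelium, had the widest spread within groups of all 39 genes, with a pooled SD of 0.614. It lay at 7.49, 8.46 and 9.56 in sham and at 8.61, 9.42 and 9.78 in infarcted hearts, and every infarcted heart was above the sham mean. The difference of 0.88 (SE 0.30) missed the threshold, with an adjusted p of 0.0535 in limma. A single probeset measured it, and sham replicate 5 was the highest sham heart at 9.56. Without that heart the adjusted p was 0.00895, and without infarcted replicate 4 it was 0.0298. Aplnr also passed in 4 of 9 other settings, with an adjusted p down to 0.0293.

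Within each heart, 4 pairs of genes were set against each other, and the difference of their levels was compared between conditions by a two-sided exact permutation test over all ways to split the 12 arrays into 6 and 6. The smallest p this design allows is 0.00216, and p-values were adjusted over the 4 pairs. Gpihbp1 minus Plvap, a capillary gene against a gene of fenestrated and venous endothelium, lay at 3.70 to 4.26 in sham and 1.86 to 2.77 in infarcted hearts. The shift was -1.65 (SE 0.17, exact permutation p = 0.00216, adjusted p = 0.00866), in which the change of Plvap was much the larger. Plvap alone had the same unadjusted exact permutation p, so the pair adds little beyond it. Apln minus Aplnr, ligand against receptor, shifted by -1.01 (SE 0.29, exact permutation p = 0.00649, adjusted p = 0.0130), and the 2 conditions overlapped. In that pair the change of Aplnr, 0.88 from a single probeset, was much the larger. Efnb2 minus Ephb4, arterial ligand against venous receptor, gave 0.13 (SE 0.11, exact permutation adjusted p = 0.384). Cdh5 minus Vwf, a junction gene of all beds against a gene of larger vessels, gave 0.10 (SE 0.14, exact permutation adjusted p = 0.450).

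Single probesets gave a finer view. Of the 429 probesets of these genes 46 were called higher, 10.7%, and 4 were called lower, 0.932%. Among all 241576 probesets 6.39% were called higher and 4.3% lower. Unequal change between probesets of a gene was tested in 38 of the genes with limma's diffSplice, and 2 passed, against 9.34% of the 15004 genes tested. The 2 were Plvap, with 5 probesets tested, and Selp, with 9. The filter used the mean over all hearts, so the level in infarcted hearts helped to decide which probesets were tested. Of those tested, 4 of Selp and 1 of Plvap had a sham mean under 5.58, and of those left out, 4 of Selp and 1 of Plvap were called higher. No weight is put on either call for that reason. In Selp the changes of the 17 probesets ran from -0.10 to 2.44. On simulated data this test also called genes made without unequal probesets, so its p-values are too small.

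**Figure D3:**
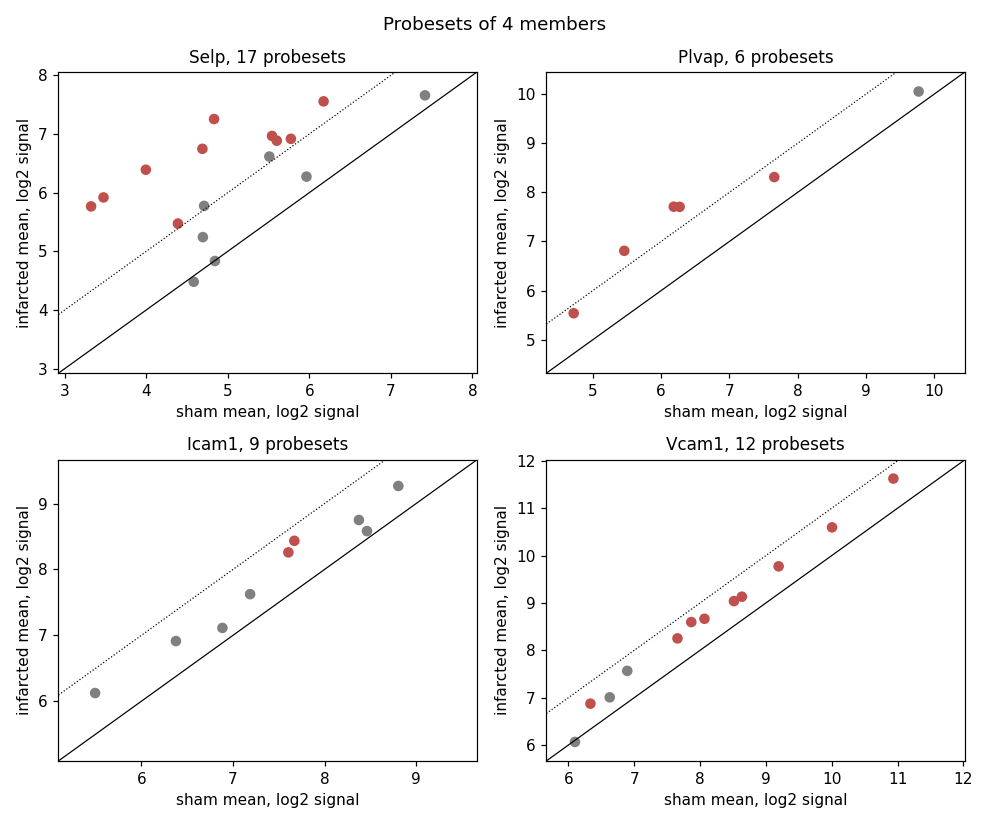
Mean level of each probeset in infarcted against sham hearts on the log2 scale, for Selp, Plvap, Icam1 and Vcam1; red marks probesets called higher, the solid line equality and the dotted line a difference of 1. Of the Selp probesets 10 of 17 are red, all of them above the dotted line, while all 9 Icam1 and all 12 Vcam1 probesets lie under it.

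Further endothelial genes outside the set were counted by the same beds. Of 54 such genes, all measured, 15 were higher, 27.8%, and 3 lower, 5.56%, with a median change of 0.13. Over all genes the shares were 10.1% higher and 10.2% lower. These lists were chosen with earlier results of these data known, so the comparison of shares is not an independent check. The part of other cell types in these counts was not tested. Of 21 general endothelial genes 6 were higher and 0 lower. Cd34, a sialomucin of vessels and of stromal progenitors, rose by 0.69 (adjusted p = 3.19e-05), Calcrl, the adrenomedullin receptor, by 0.56 (adjusted p = 0.000116), and Ecscr, a regulator of endothelial migration, by 0.48 (adjusted p = 0.00245). Of 4 further capillary genes 0 were higher and 1 was lower: Cd300lg, a mucin-like receptor of capillary and venular endothelium, gave a difference of -0.49 (adjusted p = 0.0124). Of 11 further arterial genes 3 were higher and 0 lower: the netrin receptor Unc5b at 0.97 (adjusted p = 6.2e-05), the Notch ligand Jag1 at 0.51 (adjusted p = 0.000735) and the connexin gene Gja5 at 0.47 (adjusted p = 0.00506).

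Of 4 further venous genes 2 were higher and 2 lower. The ectoenzyme Bst1 gave a difference of 1.003 (adjusted p = 1.73e-06 in limma) from a dim sham mean of 5.25. Nrp2, a co-receptor of venous and lymphatic endothelium, gave 0.44 (adjusted p = 0.00663 in limma). Lrg1, a secreted glycoprotein of venules, gave a difference of -0.61 (adjusted p = 0.00209), and Ackr1, the atypical chemokine receptor of venules, -0.51 (adjusted p = 0.0445) at levels among the dimmest of the array. Of 7 further angiogenic genes 3 were higher, Mcam, Cxcr4 and Angpt2, by 0.55, 0.47 and 0.45. Of 7 further genes of activation 1 was higher, the tethered chemokine Cx3cl1, at 0.84 (adjusted p = 4.91e-05).

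**Figure D4:**
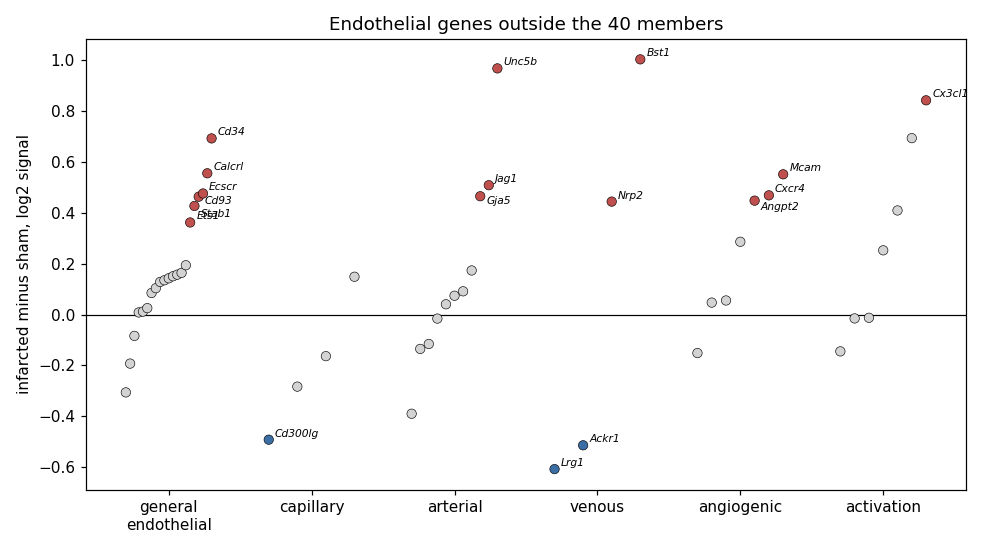
Change of each of the 54 further endothelial genes, infarcted minus sham on the log2 scale, grouped by list and ordered by size within it; red marks genes called higher, blue genes called lower and grey the others. Called genes of the general, arterial and angiogenic lists are all above 0, the called capillary gene Cd300lg is below it, and the called venous genes lie on both sides.

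Mural cells, which surround the endothelium, were measured beside it. Of 6 pericyte markers 3 were higher, Pdgfrb, Cspg4 and Notch3, while Rgs5, Vtn and Kcnj8 gave uncalled changes of 0.02, 0.02 and -0.07. Of 5 smooth muscle markers 3 were higher, with mean levels of 8.20 to 8.67 in sham and 8.77 to 9.07 in infarcted hearts. The uncalled ones were Smtn at 0.20 and Myh11 at -0.14. Of 7 cardiomyocyte markers 0 were called and 6 had a negative change, with a median of -0.09. Their mean level was 13.348 to 13.417 in sham and 13.205 to 13.345 in infarcted hearts, so that every infarcted heart lay below every sham heart. Their part in the endothelial values was not tested.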

How the data were processed

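RNA of 6 sham and 6 infarcted hearts was measured on one-colour, biotin-labelled arrays, 1 per heart. Affymetrix Power Tools is the software in the submitters' processing notes. How it summarised and normalized the signal is not given in the sources used here. Because the log base is unstated, the deposited values were taken as log2 from their range, and array medians that are nearly equal would hide a shift common to every gene. Of 241576 probesets 212097 had 1 gene symbol in the platform annotation, 4475 had several and 25004 none. RefSeq synonyms updated 2742 of the 20416 platform symbols, 17621 needed no update and 53 were kept, which gave 20352 genes with a median of 8 probesets. The gene level was the median over a gene's probesets, with no filter on dim signal. Rgcc is named on the platform by an older symbol.

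Groups came from the sample titles. The conditions were compared by limma's lmFit and eBayes (version 3.58.1, under R 4.3.3), for genes and again for probesets. Tests were two-sided. The p-values were adjusted by Benjamini-Hochberg across every gene or every probeset, with a threshold of 0.05. Unequal probesets were tested with diffSplice on probesets with a mean of at least 5.58, the 30th percentile. All 40 genes are named. The further lists give counts and up to 3 genes of smallest p in each direction. Members and lists were chosen with earlier results of these data known. Scripts were tested on simulated data. Alternatives were the mean over probesets, quantile normalization, centring, filters on dim probesets or genes, another prior, array weights, arrays left out and a replicate block. The number of arrays limits precision. No label gives a hybridisation batch. Shared replicate numbers are not said to pair the hearts. Correlations of the deviations of hearts with the same number ran from -0.0514 to 0.101, which cannot exclude a shared batch. Figures used matplotlib 3.10.9.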

Additional observations from a re-analysis of the deposited data

Results flagged for a closer look

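In 6 of the 78 groups of 6 hearts examined, 2 for each of 39 genes, a single heart stood apart from the rest by the gap it left within the range of its group (Dixon's test, 95% level). About 1 in 20 groups is expected to be picked out by chance. Pecam1 was lowest in infarcted replicate 2 at 10.03, with the nearest other heart at 10.24. Ephb4 was lowest in infarcted replicate 1 at 9.19, with the nearest at 9.36. Bmx was highest in infarcted replicate 5 at 5.26, with the nearest at 4.88. Sham replicate 5 was highest in both Nos3, at 8.72 against 8.62 in the nearest heart, and Efnb2, at 7.84 against 7.57. Procr was lowest in sham replicate 3 at 4.70, with the nearest at 5.37. Without the heart that stood apart, Pecam1 passed the threshold and Efnb2 kept its call, while Nos3, Bmx, Ephb4 and Procr stayed uncalled.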

How the results depend on the processing

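Selp, Plvap, Icam1, Vcam1 and Nr2f2 were called in every limma setting tried, and 21 of the 39 genes were called in none of them. Of 818 gene values recomputed with limma, 723 kept their side of the adjusted threshold and their direction, 38 lost a call, 33 gained one, 24 of uncalled genes changed sign, and 0 called values reversed. By the exact permutation test of each gene alone, with no adjustment, 12 genes were higher and 4 lower at p under 0.05. The share of all genes that passes this unadjusted test is not given here, so these 2 counts cannot be read as many or few. Leaving out 1 array gave 5 to 9 genes higher and 0 to 3 lower; 5 were higher without sham replicate 1, 3 or 4 or infarcted replicate 1, 3 or 6, and 0 were lower without sham replicate 2 or infarcted replicate 3. The number lower was 2 with the mean over probesets and 2 without infarcted replicates 4 and 5 together, and 3 with quantile normalization, centring, dim probesets left out, dim genes left out, or a trended robust prior. The number higher in these and with array weights was 6 to 11. Counts over all 20352 genes moved with the setting too, from 2050 higher and 2074 lower in the main fit. They were 2720 and 2954 with the mean over probesets and 1815 and 2653 with quantile normalization. Without infarcted replicate 5 they were 1790 and 1664, and without infarcted replicate 2 they were 2028 and 2110. The number of genes with unequal probesets was 4 with no filter on dim probesets and 2 to 5 with an array left out, the 5 without sham replicate 6. The count of genes with unequal probesets was 3 with the replicate block. The change of Cdh5 minus change of Vwf was -0.0618 with the mean over probesets. With the replicate number as a block the counts stayed at 8 and 1, while change of Gpihbp1 minus change of Plvap, -1.65, and change of Apln minus change of Aplnr, -1.01, each had an adjusted exact permutation p of 0.0625, both being at the smallest unadjusted p that 6 pairs allow. The causes of the other differences were not tested. Genes near the dim end, among them Bmx, Procr apart from its brightest probeset, and sham Selp, are measured against background, which limits their fold.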
